A study of Mus musculus with 8 samples.

Results

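The 37 genes of the mouse mitochondrial genome were examined by RNA-seq in EO771, a mouse breast cancer cell line. These are 13 mRNAs, 2 rRNAs and 22 tRNAs, out of 49997 genes in the count table. Only 2 gene names in that table begin with mt-, mt-Rnr1 and mt-Rnr2, and the other 35 genes stand under RefSeq symbols such as ND5, COX1, CYTB and TrnP. They were found by their place on the mitochondrial chromosome of RefSeq, and all 37 had the same start and end in GENCODE M21, both on the GRCm38 build. The strand of each gene was taken from GENCODE.

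The 8 libraries fell into 4 groups of 2. In the first experiment EO771 cells were kept for 48 h with 12-HETE at 100 nM, a lipid that 12-lipoxygenase makes from arachidonic acid, or with its vehicle, saline holding 2% DMSO. In the second, they were transduced, either without insert (vector) or with ADAR1 p150, the interferon-inducible form of an enzyme that deaminates adenosine to inosine in double-stranded RNA. Neither control group received 12-HETE or the ADAR1 p150 vector, and all groups were the same line. The labels number the vehicle and 12-HETE libraries 4 and 5 and the others 1 and 2, and do not say whether the replicates came from separate cultures. The study describes the editing comparison made from these groups as independent experiments, without tying a library to a culture. A p-value here measures the spread between these libraries.

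Library totals ran from 1101767 to 1537037 counts, and 3 counts stand for 1.95 to 2.72 CPM, the count scaled to a common library total. Structural RNA genes took 45.1% to 50.9% of each library, most of it AY036118. The epithelial markers Krt8, Krt18, Epcam and Cdh1 summed to 122 to 270 counts per library, of which Cdh1 had 0 in all 8, and 5 markers of leukocytes, endothelium and fibroblasts summed to 1 to 9. Adar had 2 and 8 counts in the vector libraries and 181 and 140 in the ADAR1 p150 libraries, a log2 fold change of 4.68 ± 0.32 (SE, n = 2 against 2).

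Mammalian mitochondrial DNA is a small circle read on both strands. Each strand is copied by the polymerase POLRMT into long precursors that hold many genes, and the tRNAs between the other genes are cut out at both ends, which releases the mRNAs and rRNAs. Most genes are encoded in the sense that is conventionally called heavy-strand transcription. The mRNAs encode subunits of the respiratory chain and of the ATP synthase, and the rRNAs and tRNAs serve the mitochondrion's own ribosomes. The noncoding copy made from the opposite strand is normally short-lived, because PNPase and the helicase SUV3 degrade it, and where it persists it can pair with the sense RNA into double strands.

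Here, the 28 genes on the plus strand of the reference are called heavy-strand genes (12 mRNAs, both rRNAs and 14 tRNAs). The other 9, called light-strand genes, are ND6 and the tRNAs TrnQ, TrnA, TrnN, TrnC, TrnY, TrnS1, TrnE and TrnP. The ends of ND5 and ND6 show how closely the strands share the same DNA. Both encode subunits of complex I, they face each other, and their last 14 bases, in capitals, are the same stretch read in opposite directions (MT, GRCm38; ND5 at chrM:13506-13565 on the plus strand, ND6 at chrM:13552-13611 on the minus strand).
ND5: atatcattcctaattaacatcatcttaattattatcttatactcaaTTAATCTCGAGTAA
ND6: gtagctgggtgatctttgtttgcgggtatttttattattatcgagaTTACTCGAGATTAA
Light-strand tRNAs carry most of the tRNA results below, and those that matter most are printed whole, 5′ to 3′, from the minus strand of the same build, with the anticodon in capitals. TrnQ (chrM:3772-3842) is the glutamine tRNA, TrnP (chrM:15356-15422) the proline tRNA, TrnS1 (chrM:6870-6938) a serine tRNA, TrnC (chrM:5192-5257) the cysteine tRNA and TrnN (chrM:5089-5159) the asparagine tRNA.
TrnQ: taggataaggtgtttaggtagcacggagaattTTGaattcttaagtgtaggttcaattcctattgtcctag
TrnP: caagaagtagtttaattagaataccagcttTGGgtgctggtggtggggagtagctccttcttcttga
TrnS1: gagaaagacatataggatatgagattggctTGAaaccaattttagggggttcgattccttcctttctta
TrnC: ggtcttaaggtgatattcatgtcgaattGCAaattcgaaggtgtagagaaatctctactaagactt
TrnN: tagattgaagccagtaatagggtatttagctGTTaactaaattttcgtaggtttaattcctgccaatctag
The bases of the genes differ by strand. ND6 held 28.1% G and 5.97% C, a skew, (G - C) / (G + C), of 0.65, whereas the 12 heavy-strand mRNAs had skews from -0.63 to -0.19. The skew was above 0 in all 8 light-strand tRNAs and in 3 of 14 heavy-strand tRNAs.

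The counts of these genes were not evenly spread, and ND5 held the most by far. Its mean level was 1439 CPM per kb of gene, against 453 for CYTB (cytochrome b of complex III), 315 for COX1 (subunit 1 of cytochrome c oxidase), 233 for ND4, 224 for ND1 and 184 for ND2, which are complex I subunits. COX3 had 11.9 CPM per kb and COX2 7.79, and ATP8, ND3, ATP6 and ND4L had 3.52 to 5.58. The run of 10 heavy-strand genes from TrnD to ND4L therefore had almost no counts, between higher levels in COX1 before it and ND4 after it. The rRNAs were also low, at 74.1 CPM per kb for mt-Rnr2 (the 16S rRNA) and 14.9 for mt-Rnr1 (the 12S rRNA).

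Among the tRNAs the strands were far apart. The 8 light-strand tRNAs had a median of 572 CPM per kb and a maximum of 4373 in TrnS1, followed by TrnP at 2353 and TrnC at 1901. The 14 heavy-strand tRNAs had a median of 7.29, and 5 of them (TrnF, TrnV, TrnD, TrnG and TrnR) had 0 counts in every library, where 3 counts would have been 1.95 to 2.72 CPM. The highest heavy-strand tRNAs were TrnL2, TrnS2 and TrnH, at 247 to 274 CPM per kb, which lie side by side between ND4 and ND5. ND6, the only light-strand mRNA, stood at 204 CPM per kb. Per-kb levels of tRNAs rest on genes shorter than most fragments and are not to be read as molar amounts.

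These levels carry a limit on strand. Across the table, 376 protein-coding genes were paired with a non-coding gene that shares at least 200 exonic bases on the other strand. The non-coding partner had more counts in 307 pairs (81.6%) and the protein-coding partner in 68 (18.1%). Whether and how strand was used in counting is not given in the sources used here. If a stranded library had been counted with the opposite setting, the count listed for a gene would be that of the RNA copied from its other strand, so each value below is the count listed under a gene and is not assigned to its own transcript. The study names removal of duplicate reads for its editing data, and its methods do not say whether that step preceded these counts. Where applied, such removal lowers the counts of short or abundant genes most, and its part in these levels was not tested.

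**Figure D1:**
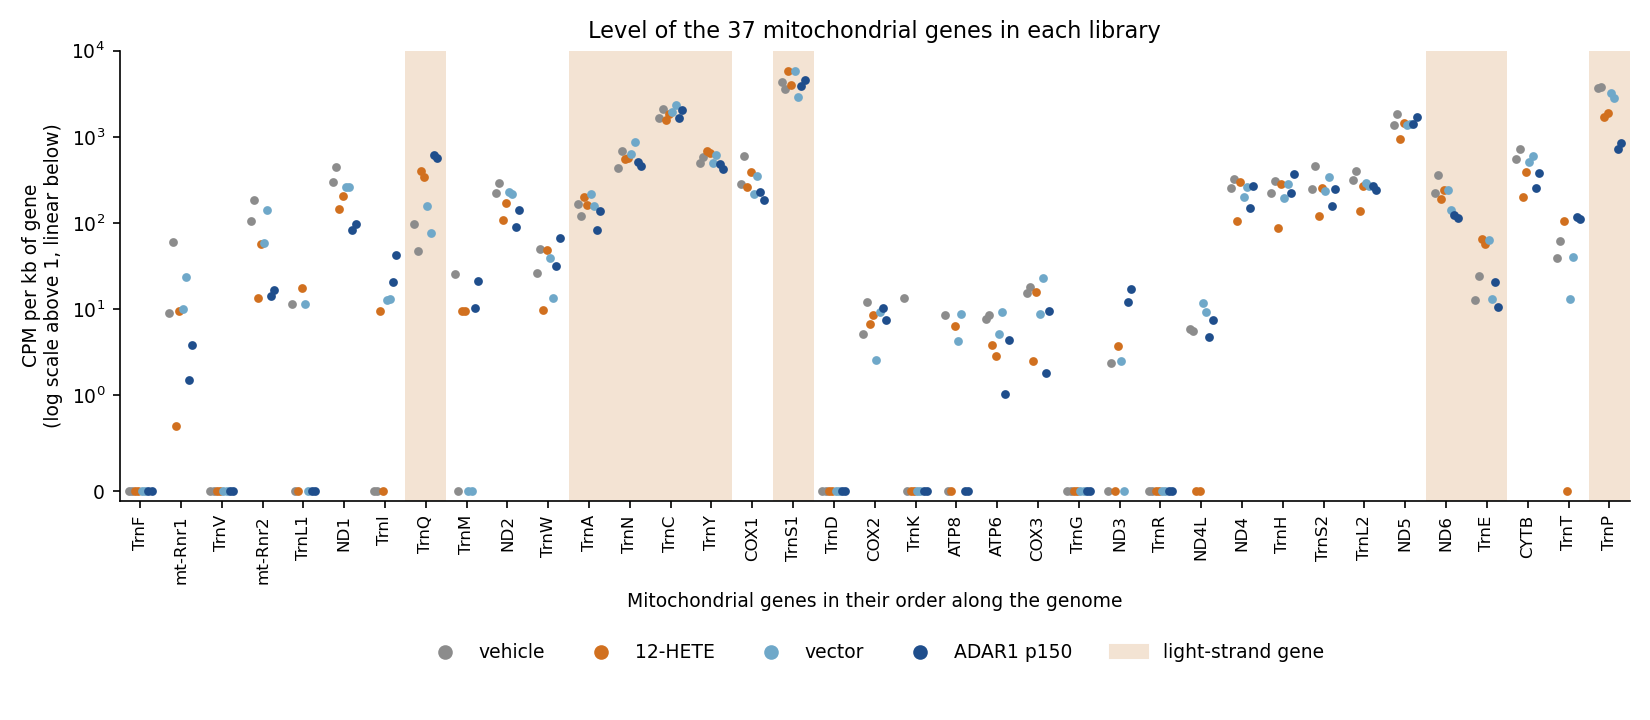
Level of each of the 37 mitochondrial genes, in CPM per kb of gene (log axis above 1, linear below), in genome order. Each point is a library, coloured by group, and shaded columns are light-strand genes. ND5 and the light-strand tRNAs TrnS1, TrnC and TrnP are the highest, and the run from TrnD to ND4L is far lower, in part at 0.

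As a share of all counts, the mitochondrial genes were a small part of every library. They took 0.558% and 0.769% of the vehicle libraries and 0.366% and 0.544% of the 12-HETE libraries. In the second experiment they took 0.430% and 0.521% with ADAR1 p150, against 0.534% and 0.576% in the vector controls. The treated libraries were below their controls in both experiments, but with 12-HETE the groups overlapped once structural RNA genes were left out of the total (0.914% ± 0.275 against 1.28% ± 0.316, SD, n = 2 each). An exact two-sided permutation test of 2 against 2 libraries cannot give a p under 0.333, so shares are described without a test. These are bulk libraries, in which fewer cells with such RNA and less RNA per cell cannot be told apart.

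By class, the difference was greatest in the rRNAs. Both rRNAs together had 34 and 152 counts with 12-HETE against 199 and 421 in its controls. With ADAR1 p150 they had 34 and 41, against 118 and 274. Their mean share of all counts was 0.232 of the control's with 12-HETE and 0.155 of it with ADAR1 p150, without overlap of the groups. The mRNAs had 4397 and 7084 counts with 12-HETE against 5263 and 7820, and 5174 and 6080 with ADAR1 p150 against 4960 and 5276, and as shares of all counts the groups overlapped in both experiments. The tRNAs had 1201 and 1082 counts with 12-HETE against 924 and 1001, and 845 and 932 with ADAR1 p150 against 1049 and 800. Light-strand genes had 1304 and 1184 counts with 12-HETE against 987 and 1123, and 858 and 914 with ADAR1 p150 against 1132 and 813. As shares of all counts, light-strand genes stood at 0.0898% ± 0.00515 with vehicle, 0.0811% ± 0.00528 with 12-HETE, 0.0862% ± 0.0175 with vector and 0.0643% ± 0.00464 with ADAR1 p150 (SD, n = 2 each). The groups did not overlap in this share in either experiment, but with 12-HETE they overlapped once structural RNA was left out of the total, at 0.167% and 0.158% against 0.163% and 0.183%. Over the mitochondrial counts alone the mean was higher with 12-HETE, at 18.7% ± 6.31 against 13.8% ± 2.34 (SD, n = 2 each). The groups overlapped there, at 23.2% and 14.2% against 15.5% and 12.2%.

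The make-up of the mitochondrial counts differed most with ADAR1 p150. ND5 alone was 59.0% and 59.7% of them there, above the 43.9% to 48.7% of the other 6 libraries. The other heavy-strand mRNAs were 25.2% ± 1.23 of the mitochondrial counts, against 34.3% ± 3.42 with vector (SD, n = 2 each, no test). With 12-HETE they were 31.4% ± 3.98 against 36.7% ± 2.29 with vehicle. The rRNAs were 0.572% ± 0.0139 of the mitochondrial counts with ADAR1 p150, 3.12% ± 1.69 with vector, 1.22% ± 0.865 with 12-HETE and 3.84% ± 1.02 with vehicle.

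**Figure D2:**
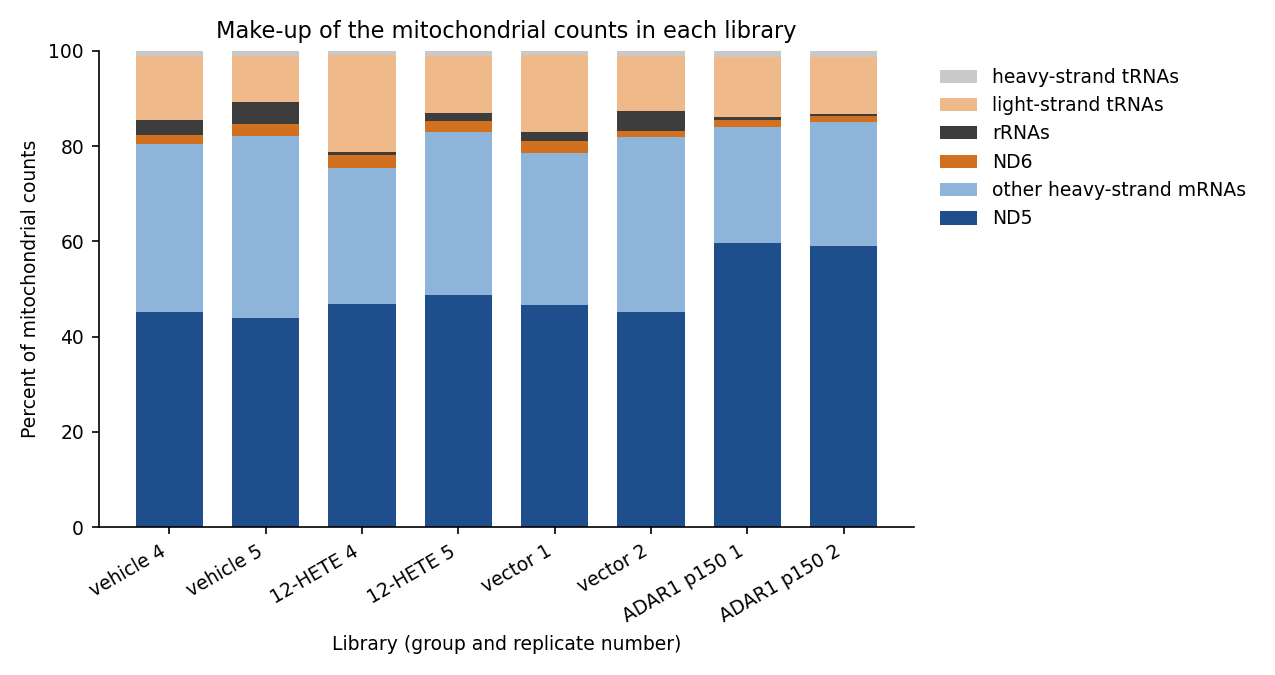
Stacked bars of the mitochondrial counts of each library, in percent, by kind of gene. ND5 is the largest part in every library, 59.0% and 59.7% with ADAR1 p150 and 43.9% to 48.7% elsewhere, and the dark rRNA part is thinnest with ADAR1 p150.

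Single genes were tested in edgeR, by the quasi-likelihood test with p-values adjusted by Benjamini-Hochberg over the 6901 genes whose mean count reached 10. A gene passed at an adjusted p under 0.05, and 2-fold changes are counted separately. Of the 37 mitochondrial genes, 20 had enough counts to be tested: 8 mRNAs, both rRNAs and 10 tRNAs (TrnH, TrnS2 and TrnL2 of the heavy strand, and the light-strand tRNAs other than TrnE). The 17 others had mean counts of 0 to 7. TrnQ reached the minimum mainly through the treated libraries, and mt-Rnr1 mainly through the controls. Neither was tested where every library had to reach 10 counts, so their calls rest on a filter that depends on the change itself. Genes that share a precursor are not independent of each other.

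The first comparison asks what 12-HETE did to the listed counts. Both rRNAs, the mRNAs ND1, ND2 and CYTB, and TrnP were lower, and TrnQ and TrnS1 were higher. Thus 6 of 20 genes passed as lower, beside 14.2% of all genes tested, and 2 of 20 passed as higher, beside 15.1%. With the 2-fold limit 3 of 20 were called, beside 14.4% of all genes, so at that limit the mitochondrial genes were near the background. The median log2 fold change of the 20 was -0.32, against 0.0044 over all genes.

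mt-Rnr2 had 33 and 138 counts in the 12-HETE libraries, against 189 and 351 in their vehicle controls, and from here on the treated libraries are given first. Both treated libraries were below both controls, at 62.6 ± 56.3 against 220 ± 88.7 normalized CPM (SD, n = 2 each), and the log2 fold change was -1.83 ± 0.31 (SE), with an adjusted p of 1.53e-05 in edgeR. The 12-HETE libraries differed so far from each other that the value was -1.10 without replicate 4 and -3.26 without replicate 5. mt-Rnr1 had 1 and 14 counts in the 12-HETE libraries, against 10 and 70 in their vehicle controls. Its groups overlapped after scaling, and its log2 fold change of -2.57 ± 0.60 (edgeR adjusted p = 0.00109) became -0.68 without vehicle replicate 5 (adjusted p = 0.555) and -1.64 without 12-HETE replicate 4 (adjusted p = 0.0601). It was -3.36 without vehicle replicate 4 and -5.37 without 12-HETE replicate 5, which left the library with 1 count.

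ND1, a membrane subunit of complex I that follows mt-Rnr2 on the heavy strand, had 213 and 298 counts in the 12-HETE libraries, against 324 and 511 in their vehicle controls. Its normalized level was 184 ± 52.3 CPM against 340 ± 100.5 CPM, without overlap, with a log2 fold change of -0.89 ± 0.15 and an edgeR adjusted p of 2.1e-05. ND2, the next mRNA on the same strand, had 175 and 270 counts against 267 and 363, and its log2 fold change was -0.68 ± 0.17 (edgeR adjusted p = 0.00212). This call was lost without 12-HETE replicate 4 (log2 fold change -0.36, adjusted p = 0.178). CYTB had 356 and 683 counts in the 12-HETE libraries, against 720 and 993 in their vehicle controls, again with the groups apart, and its log2 fold change was -0.90 ± 0.18 (edgeR adjusted p = 0.000156). Leaving out a library, the value for CYTB ran from -1.50, without 12-HETE replicate 5, to -0.46.

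The 5 other tested mRNAs did not pass in the fit of all 8 libraries. ND5 had 2638 and 4051 counts in the 12-HETE libraries, against 2889 and 4053 in their vehicle controls, ND4 had 221 and 627 against 400 and 538, and COX1 628 and 929 against 503 and 1102. Replicates of each differed by more than the group means did, and the log2 values were -0.23 ± 0.14 for ND5, -0.32 ± 0.24 for ND4 and -0.22 ± 0.19 for COX1. ND6, on the light strand, had 152 and 191 counts against 132 and 223, with a log2 fold change of -0.23 ± 0.19 (edgeR adjusted p = 0.386). ND4 did pass as lower when the 4 libraries of this experiment were fitted alone (-0.35, edgeR adjusted p = 0.0497) and without 12-HETE replicate 5 (-1.32), while its value was 0.28 without 12-HETE replicate 4. COX3 had 3 to 19 counts in these 4 libraries, with a log2 value of -0.67 ± 0.54.

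The tRNAs moved in both directions. TrnQ had 44 and 37 counts in the 12-HETE libraries, against 8 and 4 in their vehicle controls. The treated libraries were apart from the controls, at 28.9 ± 2.09 against 4.93 ± 2.42 normalized CPM. The log2 fold change was 2.54 ± 0.40 (edgeR adjusted p = 4.82e-06). Leaving out a library, it ran from 2.04 to 3.13, the latter without vehicle replicate 4. TrnQ met the minimum mean count mainly through treated libraries and was not tested where every library had to reach 10 counts. TrnS1 had 610 and 425 counts against 347 and 302, a log2 fold change of 0.48 ± 0.18 (edgeR adjusted p = 0.0432). It no longer passed without vehicle replicate 5 (0.29, adjusted p = 0.33), without 12-HETE replicate 4 (0.25, adjusted p = 0.469), with scaling from nuclear genes alone (0.40, adjusted p = 0.079), with a minimum of 10 counts in every library (0.46, adjusted p = 0.0649) or in DESeq2 (0.45, adjusted p = 0.614).

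TrnP was lower, with 177 and 193 counts in the 12-HETE libraries, against 287 and 308 in their vehicle controls. Its replicates lay close together, at 133 ± 14.8 against 243 ± 6.73 normalized CPM, and its log2 fold change was -0.87 ± 0.13 (edgeR adjusted p = 2.7e-06). TrnC, with 161 and 187 counts against 126 and 168, had a log2 value of 0.06 ± 0.15, and TrnN, with 61 and 61 against 35 and 59, one of 0.19 ± 0.23. TrnY and TrnA had log2 values of 0.51 and 0.53, with edgeR adjusted p = 0.0743 and 0.355. The heavy-strand TrnH, TrnS2 and TrnL2 had log2 values from -0.74 to -0.32 and did not pass.

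The number of genes that passed depended on single libraries and on the tool. Without 12-HETE replicate 5 it was 14, without vehicle replicate 4 it was 11, without 12-HETE replicate 4 it was 5 and without vehicle replicate 5 it was 6. The number past the 2-fold limit was 11 without 12-HETE replicate 5 and 5 without vehicle replicate 4. DESeq2 passed 3 (ND1, TrnP and TrnQ), and gave mt-Rnr2 an adjusted p of 0.142 at the log2 value of -1.83.

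**Figure D3:**
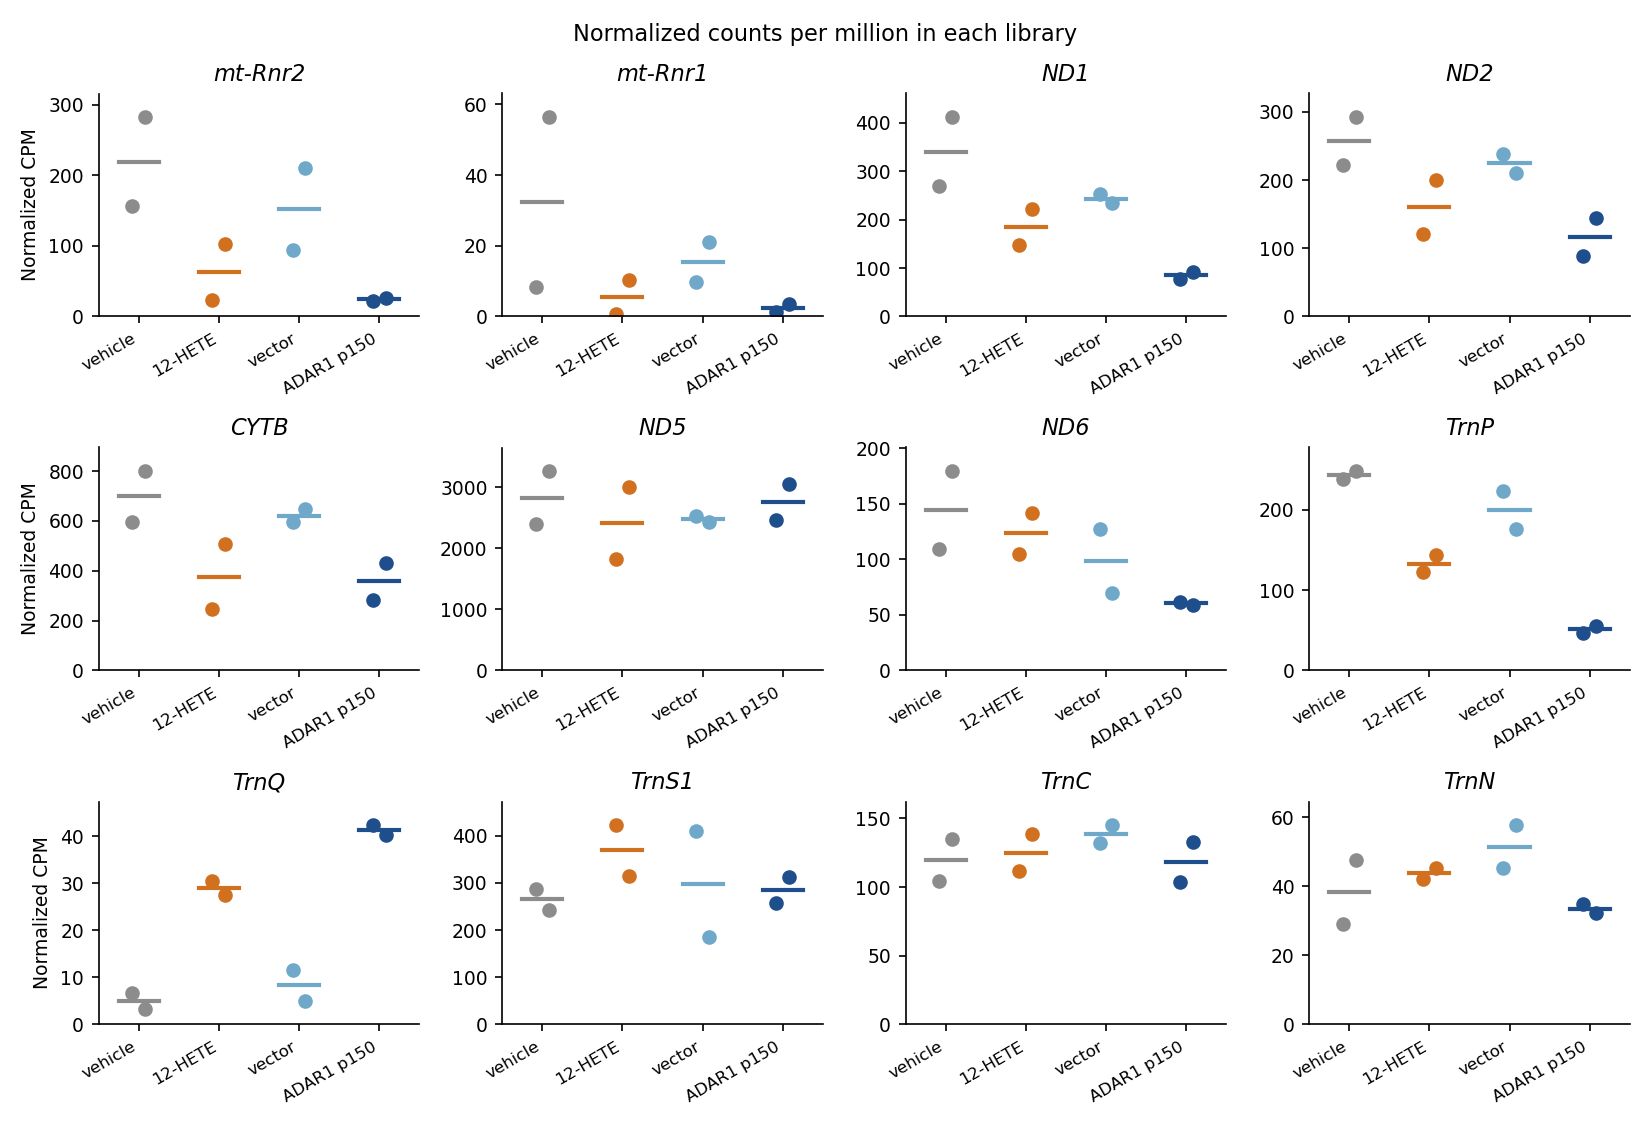
Normalized CPM of 12 mitochondrial genes, 1 panel a gene with its own axis from 0. Points are libraries and bars are means of 2. The means of mt-Rnr2, ND1 and TrnP are lowest with ADAR1 p150, TrnQ is near 30 with 12-HETE and near 40 with ADAR1 p150 but under 12 in every control, and ND5 overlaps between treated and control libraries.

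The second comparison asks the same of ADAR1 p150 against empty vector. Again both rRNAs, ND1, ND2, CYTB and TrnP were lower and TrnQ was higher, and ND6 and TrnN were also lower. Of 20 genes, 8 passed as lower, beside 11.1% of all genes tested, and 1 as higher, beside 14.5%. With the 2-fold limit 5 were called, beside 12.8% of all genes. The median log2 fold change of the 20 was -0.55, against 0.07 over all genes. The control libraries of this comparison are not those of the 12-HETE comparison.

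mt-Rnr2 had 32 and 36 counts in the ADAR1 p150 libraries, against 107 and 249 in their vector controls. Its level was 24.1 ± 3.22 against 153 ± 82.2 normalized CPM, without overlap, and the vector libraries differed from each other far more than the ADAR1 p150 libraries did. The log2 fold change was -2.67 ± 0.38 (edgeR adjusted p = 1.33e-06), or -1.97 without vector replicate 2. mt-Rnr1 had 2 and 5 counts against 11 and 25, with a log2 fold change of -2.61 ± 0.81 (edgeR adjusted p = 0.015). At such low counts the call was lost without vector replicate 2 (-1.94, adjusted p = 0.148) and without ADAR1 p150 replicate 1 (-2.06, adjusted p = 0.148), and the value was -3.42 without ADAR1 p150 replicate 2.

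ND1 had 113 and 126 counts in the ADAR1 p150 libraries, against 285 and 277 in their vector controls. The replicates agree closely, at 84.7 ± 10.8 against 243 ± 12.4 normalized CPM, and the log2 fold change was -1.52 ± 0.17 (edgeR adjusted p = 1.88e-08). ND2 had 131 and 198 counts against 270 and 248, and CYTB 414 and 589 against 674 and 763. Their log2 fold changes were -0.94 ± 0.18 (edgeR adjusted p = 0.000123) and -0.80 ± 0.18 (edgeR adjusted p = 0.000811), with all treated libraries below all controls, and CYTB did not pass without ADAR1 p150 replicate 1 (-0.53, adjusted p = 0.0805).

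ND6 had 91 and 81 counts in the ADAR1 p150 libraries, against 144 and 82 in their vector controls, a log2 fold change of -0.69 ± 0.22 (edgeR adjusted p = 0.0204). The call rested on vector replicate 1, without which the value was -0.19 (adjusted p = 0.658), and it was also lost without ADAR1 p150 replicate 1 (adjusted p = 0.0781) or replicate 2 (adjusted p = 0.103). Without vector replicate 2 the value was -1.07. ND5 had 3613 and 4163 counts in the ADAR1 p150 libraries, against 2862 and 2862 in their vector controls, which is 2757 ± 415 against 2478 ± 76.7 normalized CPM. Once the larger totals were scaled out the groups overlapped, and the log2 value was 0.15 ± 0.14 (edgeR adjusted p = 0.474). COX1, with 501 and 386 counts against 386 and 605, had a log2 value of -0.45 ± 0.20 (edgeR adjusted p = 0.103), and COX3, with 2 and 10 against 8 and 20, one of -1.49 ± 0.62 (edgeR adjusted p = 0.0745). Both passed as lower with RLE factors (adjusted p = 0.0325 for COX1 and 0.0436 for COX3), with scaling from nuclear genes, without a minimum count and when the 4 libraries were fitted alone.

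TrnP showed the largest relative drop of any tested tRNA, with 68 and 76 counts in the ADAR1 p150 libraries, against 252 and 208 in their vector controls. The normalized level was 51 ± 6.59 against 199.6 ± 33.1 CPM, and the log2 fold change was -1.97 ± 0.16, a 3.91-fold difference, with an edgeR adjusted p of 3.77e-12. Leaving out any of the 4 libraries kept it between -2.13 and -1.79. TrnQ had 62 and 55 counts in the ADAR1 p150 libraries, against 13 and 6 in their vector controls, again without overlap. Its log2 fold change was 2.31 ± 0.34 (edgeR adjusted p = 2.39e-06). Without single libraries TrnQ ran from 1.84 to 3.0, the latter without vector replicate 1. Here too it was not tested where every library had to reach 10 counts. TrnN had 51 and 44 counts against 51 and 68, a log2 fold change of -0.62 ± 0.23 (edgeR adjusted p = 0.0468), and did not pass without vector replicate 2, without either ADAR1 p150 library or in DESeq2. TrnS1, with 378 and 425 counts against 463 and 219, had a log2 value of -0.06 ± 0.18. This value hides a split between the vector libraries, as it was 0.62 without vector replicate 1 and -0.53 without vector replicate 2. TrnC, with 152 and 181 counts against 149 and 171, had a log2 value of -0.23 ± 0.15.

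The number that passed was 11 under each of the settings that added COX1 and COX3. Without ADAR1 p150 replicate 1 it was 5, and without ADAR1 p150 replicate 2 the number past the 2-fold limit was 8. DESeq2 passed 4 (mt-Rnr2, ND1, TrnP and TrnQ), with an adjusted p of 0.0155 for mt-Rnr2.

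**Figure D4:**
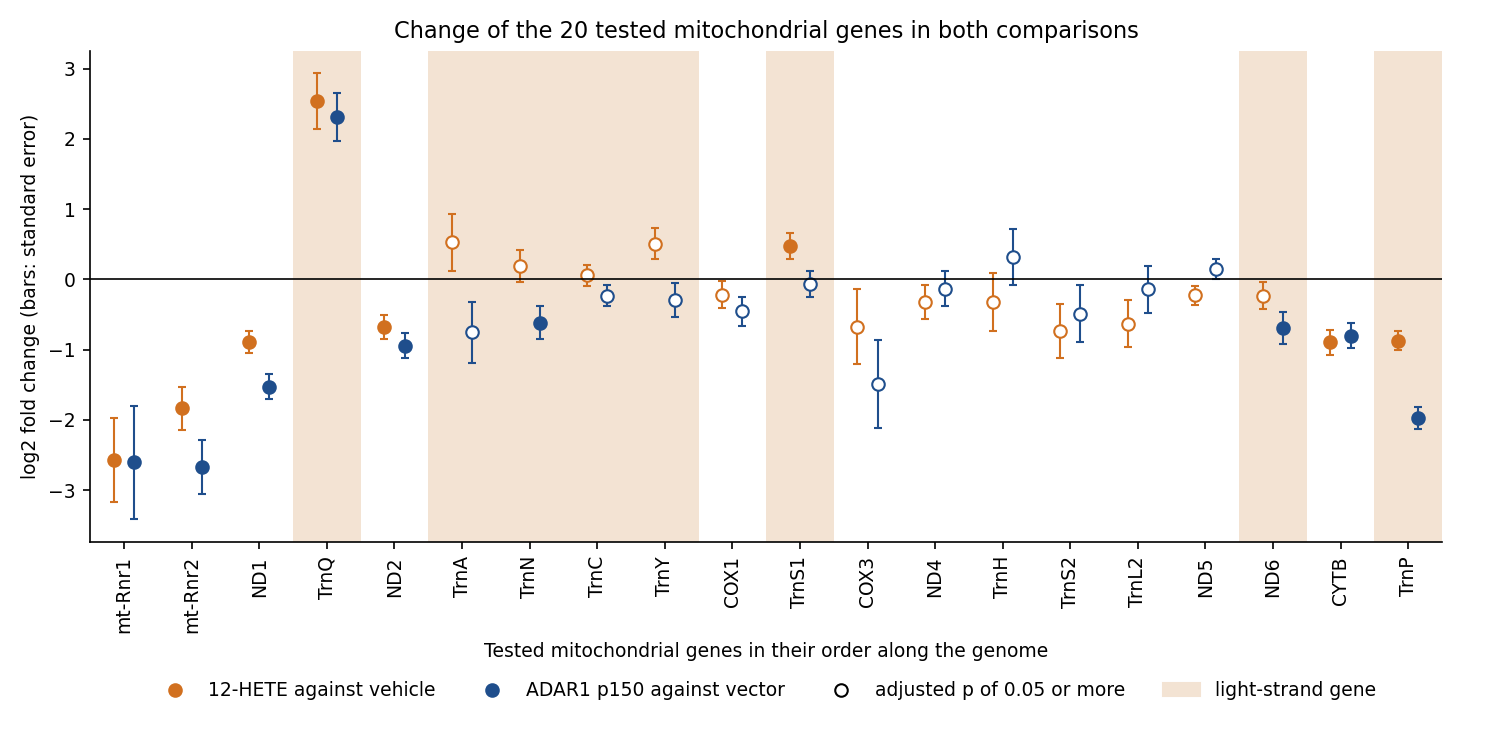
log2 fold change of the 20 tested mitochondrial genes, in genome order, for 12-HETE against vehicle (orange) and ADAR1 p150 against vector (blue). Bars are standard errors, open points did not pass an adjusted p of 0.05 and shaded columns are light-strand genes. From mt-Rnr1 to ND2 the values are below 0 except TrnQ, and TrnP is at -0.87 and -1.97.

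By strand, the 12 tested heavy-strand genes had a log2 value below 0 in all 12 with 12-HETE, of which 5 passed, and in 10 with ADAR1 p150, of which 5 passed. The values of vector against vehicle, which share the vehicle libraries with the first of these, were also below 0 in all 12, with a median of -0.30 and 0 passed. The passed genes stand beside 14.2% of all genes lower with 12-HETE and 11.1% with ADAR1 p150. The 8 tested light-strand genes were mixed. With 12-HETE 2 were higher, 1 was lower and 5 did not pass, and with ADAR1 p150 1 was higher, 3 were lower and 4 did not pass, beside 15.1% and 14.5% of all genes higher. TrnQ and TrnP, which are both light-strand tRNAs, had opposite directions in each comparison. TrnQ lies between ND1 and ND2 and overlaps the 3′ end of the heavy-strand TrnI by 3 bases, whereas TrnP is the last gene before the noncoding control region. The gene order thus placed a rise at TrnQ between falls at ND1 and ND2, on the opposite strand.

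Whether the effects of 12-HETE and of ADAR1 p150 differ was tested as the difference of the log2 fold changes (ADAR1 p150 minus 12-HETE) in the same fit. Only TrnP passed among the 20 genes, beside 15.0% of all genes at the adjusted p and 8.33% with the 2-fold limit. Its difference was -1.09 ± 0.21 (edgeR adjusted p = 0.000252), since it fell by 1.97 on the log2 scale with ADAR1 p150 and by 0.87 with 12-HETE. For ND1 the difference was -0.64 ± 0.23 (edgeR adjusted p = 0.062), and for mt-Rnr2 it was -0.84 ± 0.52 (edgeR adjusted p = 0.306). ND1 passed with RLE factors (adjusted p = 0.0376), and without a minimum count both passed (adjusted p = 0.0288 and 0.0381). TrnA, TrnN, TrnY and TrnS1 had differences of -1.28, -0.80, -0.80 and -0.54 and unadjusted p-values of 0.0385, 0.0192, 0.0174 and 0.0433 in edgeR, none of which passed after adjustment. The number of genes that passed was 6 without vehicle replicate 5, 3 without 12-HETE replicate 4, 4 without 12-HETE replicate 5, 2 without vector replicate 1 and 4 without vector replicate 2. Because this comparison uses separate controls, it also contains any difference between the experiments.

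The control groups were compared to see how far the experiments stood apart. In edgeR 0 of 20 mitochondrial genes differed between vector and vehicle, beside 0.116% of all genes at the adjusted p and 0.0435% with the 2-fold limit, and 5 of 20 had an unadjusted p under 0.05 (ND1, COX1, ND6, TrnP and mt-Rnr1, all lower with vector). DESeq2 gave 0 at either p. The number that passed in edgeR was 2 without vehicle replicate 4, 1 without vector replicate 1 and 3 without vector replicate 2. COX1 had the lowest log2 value among the mRNAs, -0.61 ± 0.20 (edgeR adjusted p = 0.222).

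A list of 49 nuclear genes covered mitochondrial transcription, RNA processing, modification and decay, maintenance of mitochondrial DNA, and transcription factors and a coactivator of nuclear genes for mitochondria. Only 12 reached a mean count of 10 and were tested. Of these, Elac2, Rexo2 and Pde12 reached it mainly through treated libraries. With 12-HETE 6 of the 12 were higher and 0 lower (7 of 12 at an unadjusted p under 0.05), beside 15.1% higher and 14.2% lower of all genes, with a median log2 fold change of 0.57, against 0.0044 over all genes. With ADAR1 p150 2 were higher and 2 lower, near the 14.5% and 11.1% of all genes, and the median was -0.0039, against 0.07 over all genes. The 6 became 2 without 12-HETE replicate 4, 3 without vehicle replicate 5, and 4 without vehicle replicate 4, without 12-HETE replicate 5 or with scaling from nuclear genes, and DESeq2 passed 1 as higher. With ADAR1 p150 the lower genes numbered 0 without vector replicate 1 or without ADAR1 p150 replicate 1, and 1 without either of the others, and the higher genes 1 without either ADAR1 p150 library. Where every library had to reach 10 counts, 3 of 7 genes were higher with 12-HETE and 0 lower. Without a minimum count, 4 of 49 were higher and 0 lower. With ADAR1 p150 the same settings gave 2 higher and 2 lower of 7, and 1 higher and 2 lower of 49. All these counts share the limit on strand.

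Mterf2 and Pde12 passed as higher in both comparisons, Pde12 only narrowly. Mterf2, a mitochondrial DNA-binding protein of the termination factor family, had 60 and 48 counts in the 12-HETE libraries, against 26 and 21 in their vehicle controls, and 69 and 52 with ADAR1 p150, against 20 and 20 in the vector libraries. The groups did not overlap, and the log2 fold changes were 1.00 ± 0.26 (edgeR adjusted p = 0.00319) and 1.30 ± 0.27 (edgeR adjusted p = 0.000315). Pde12, which removes poly(A) tails from mitochondrial RNA, had 24 and 16 counts against 8 and 7, and 18 and 18 against 9 and 3, with log2 fold changes of 1.21 ± 0.45 (edgeR adjusted p = 0.0394) and 1.28 ± 0.48 (edgeR adjusted p = 0.0482). Pde12 no longer passed in either comparison with scaling from nuclear genes (adjusted p = 0.0528 and 0.058), without a minimum count (0.104 and 0.159) or in DESeq2 (0.292 and 0.322), nor with ADAR1 p150 under RLE factors (0.0572) or in the fit of 4 libraries (0.0587). Leaving out 12-HETE replicate 4, either vehicle library, either ADAR1 p150 library or vector replicate 2 also ended the call of the comparison concerned, and for Mterf2 the 12-HETE call was lost without 12-HETE replicate 4, without vehicle replicate 5 or in DESeq2.

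Gabpa, Polg, Elac2 and Rexo2 passed as higher with 12-HETE and did not pass with ADAR1 p150. Their edgeR adjusted p-values with 12-HETE were 1.08e-06, 0.0211, 0.0209 and 0.0198. Gabpa, a subunit of the transcription factor NRF-2, had 284 and 274 counts in the 12-HETE libraries, against 131 and 123 in their vehicle controls, a log2 fold change of 0.94 ± 0.14. Polg, the mitochondrial DNA polymerase, had 328 and 279 against 218 and 194 (0.37 ± 0.12). Its call was lost with scaling from nuclear genes (edgeR adjusted p = 0.0909), without a minimum count (edgeR adjusted p = 0.216) and in DESeq2 (adjusted p = 0.203). Leaving out a library, the value of Polg ran from 0.19 without vehicle replicate 5 to 0.48 without vehicle replicate 4. Elac2, which cuts the 3′ ends of tRNAs, had 18 and 29 against 6 and 10 (1.36 ± 0.45), and Rexo2, an oligoribonuclease, 21 and 21 against 5 and 9 (1.38 ± 0.45). Neither Elac2 nor Rexo2 passed in DESeq2 (adjusted p = 0.202 and 0.231), and neither was tested where every library had to reach 10 counts. Both values depended on single libraries. Elac2 ran from 0.92 without 12-HETE replicate 5 to 1.71 without 12-HETE replicate 4. Rexo2 ran from 1.05 without vehicle replicate 4 to 1.77 without vehicle replicate 5. The effect differed between the treatments for Gabpa, by -0.61 ± 0.19 (edgeR adjusted p = 0.0275), and the difference did not pass for Polg, Elac2 or Rexo2.

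Slirp and Prorp were lower with ADAR1 p150. Slirp, which stabilizes mitochondrial mRNAs together with LRPPRC, had 25 and 45 counts in the ADAR1 p150 libraries, against 72 and 53 in their vector controls, a log2 fold change of -1.12 ± 0.26 (edgeR adjusted p = 0.00126), and 48 and 60 against 39 and 48 in the 12-HETE experiment. Its difference between the treatments was -1.25 ± 0.37 (edgeR adjusted p = 0.0167). The log2 value of Slirp with ADAR1 p150 was -0.71 without ADAR1 p150 replicate 1 and -0.85 without vector replicate 1. Prorp, the nuclease of mitochondrial RNase P, which cuts the 5′ ends of tRNAs, had 24 and 28 counts against 36 and 40, a log2 fold change of -0.84 ± 0.30 (edgeR adjusted p = 0.0345), which was lost without any 1 of the 4 libraries and in DESeq2. Mrm1, a methyltransferase of the 16S rRNA, passed in neither treatment, at 0.61 and -0.60, but its difference did, at -1.21 ± 0.37 (edgeR adjusted p = 0.0209). The polymerase Polrmt had 1 to 5 counts per library, Tfam 3 to 7, Lrpprc 2 to 13, Pnpt1 4 to 12 and Supv3l1 2 to 12, and none of these 5 could be tested.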

How the data were processed

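RNA-seq counts of 8 EO771 libraries (4 groups of 2) were used. According to the study's methods for the editing data, reads were checked with FastQC, duplicates were removed with prinseq and reads were aligned to GRCm38 with STAR. For expression the methods refer to alignment with STAR and counting with featureCounts, without naming duplicate removal. The authors deposited raw counts per gene without normalization. The methods name Trizol extraction and a directional library kit for the editing data, whereas the sample labels name a column kit and SMARTER libraries. Whether rRNA was depleted, and the strand setting of the counting, are not given in the sources used here.

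The 6901 of 49997 genes whose mean count reached 10 were fitted in edgeR 4.0.16 (limma 3.58.1, R 4.3.3) with TMM factors, 1 coefficient per group and all 8 libraries, by the quasi-likelihood test with Benjamini-Hochberg adjustment, and called where the adjusted p was under 0.05 and the change 2-fold or more. Standard errors were derived from the log2 fold change and its F statistic. The procedure was tested on simulated data. CPM per kb scales the count by the library total and the gene length in kilobases; normalized CPM uses the TMM factors. Intervals and floors of 3 counts cover counting error only. Alternatives were DESeq2 1.42.0, RLE factors, other minimum counts, scaling from nuclear genes, a fit of the 4 libraries of a comparison, a replicate block, leaving out each library, adjusted p alone and other totals for the shares; the crossed block was chosen after seeing the data.

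The members and gene lists were chosen with earlier results of these data known. The genes with values in every library were the rRNAs, ND6 and each mRNA or tRNA that passed an adjusted p of 0.05 in any comparison; those of the list of 49 were the ones that passed in either treatment and 5 fixed genes. ND5, ND4, COX1, COX3, TrnC and Mrm1 were added after their values were seen. Gene positions are from RefSeq GRCm38.p6, strands and sequences from GENCODE M21.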

Additional observations from a re-analysis of the deposited data

Results flagged for a closer look

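TrnP, the proline tRNA of the light strand, was picked out because its changes under the treatments differed by a test of the difference itself. With ADAR1 p150 its log2 fold change was lower by -1.09 than with 12-HETE (SE 0.21, edgeR adjusted p = 0.000252), at 68 and 76 counts with ADAR1 p150 against 252 and 208 with vector, and 177 and 193 with 12-HETE against 287 and 308 with vehicle. The difference kept its direction and passed without each library in turn, from -1.26 to -0.92, and in DESeq2, at -1.13. Groups of 2 libraries were too small to look for a single library that stood apart.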

How the results depend on the processing

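The number of mitochondrial genes called with the 2-fold limit was 3 with 12-HETE and 5 with ADAR1 p150. It was 1 with 12-HETE in DESeq2 and 1 with at least 10 counts in every library, and by adjusted p alone it was 8. With ADAR1 p150 it was 3 with at least 10 counts in every library and 9 by adjusted p alone. By adjusted p alone, ADAR1 p150 gave 11 genes (COX1 and COX3 added, 6 or 7 past 2-fold) with RLE factors, nuclear scaling, no minimum, the crossed block and the fit of 4 libraries. DESeq2 passed 3 and 4 genes, and the minimum in every library, which tested 15 genes, 5 and 6. Leaving out a library gave 2 to 11 with 12-HETE, 4 to 8 with ADAR1 p150, 0 to 1 for vector against vehicle and 0 to 3 for the difference of the effects; where 1 library remained in a group it was assumed to vary like the other groups. The log2 ratio of shares, taken over mitochondrial counts in place of all counts, was -0.034 for mRNAs, 0.41 for tRNAs and 0.41 for light-strand genes with 12-HETE, and 0.066, -0.11 and -0.18 with ADAR1 p150. The 12-HETE and vehicle libraries overlapped in each of these shares. Leaving out a library, ratios over all counts ran from -0.94 to -0.24 (mRNAs), -3.48 to -1.31 (rRNAs), -0.21 to -0.07 (tRNAs) and -0.21 to -0.08 (light-strand genes) with 12-HETE, and from -0.31 to -0.02, -3.20 to -1.93, -0.51 to -0.18 and -0.62 to -0.20 with ADAR1 p150. Of the genes that did not pass, TrnC and TrnS1 changed sign with all libraries in the fit, TrnC with 12-HETE (-0.021 with scaling from nuclear genes) and TrnS1 with ADAR1 p150 (0.0015 with the replicate block, 0.0011 with the crossed block). Without single libraries, signs changed for genes that had not passed, with ranges for 12-HETE of -0.12 to 0.52 (TrnN), -0.11 to 0.21 (TrnC), -0.66 to 0.36 (COX1), -2.55 to 0.15 (COX3), -1.32 to 0.28 (ND4), -1.45 to 0.33 (TrnH), -0.63 to 0.088 (ND5) and -0.54 to 0.10 (ND6), and for ADAR1 p150 of -0.53 to 0.62 (TrnS1), -0.65 to 0.25 (ND4), -0.12 to 0.67 (TrnH) and -0.0084 to 0.30 (ND5). The cause was not tested. RLE factors and scaling from nuclear genes moved the median of all genes by at most 0.08 on the log2 scale.

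The replicate numbers are shared by the groups of an experiment but nothing says that a number marks a batch. Same-numbered libraries correlated at -0.08 in their deviations over 6901 genes in the 12-HETE experiment and at -0.11 in the other. By adjusted p alone, the block passed 9 genes with 12-HETE, with ND4 added (-0.45, adjusted p = 0.0446), and 9 with ADAR1 p150, with COX1 added (-0.43, adjusted p = 0.0242) and TrnN lost (adjusted p = 0.0715). The difference for ND1 passed too (adjusted p = 0.0235). Of the nuclear list, Pde12 (adjusted p = 0.0605 and 0.0665) and Prorp (0.0546) no longer passed, which left 5 higher with 12-HETE, and 1 higher and 1 lower with ADAR1 p150. With the 2-fold limit and the replicate block, 3 genes were called with 12-HETE, 5 with ADAR1 p150, 0 for vector against vehicle and 1 for the difference. With crossed pairs, 6 were called with ADAR1 p150 and 1 for the difference.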
